A study of Mus musculus with 16 samples.

Results

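The genes of the circadian clock were followed in whole aorta from 16 ApoE-/- mice, with 1 Affymetrix array per mouse. The genes were Arntl, Npas2, Per1, Per2, Per3, Cry1, Nr1d1, Nr1d2, Dbp and Tef, and they were found as the probe sets whose platform annotation gave exactly 1 of these symbols. This gave 10 of 18194 annotated genes, and 23 of the 45101 probe sets on the array. Of the 10 genes, 8 lay above the filter on low signal and were tested among 11043 genes, whereas both probe sets of Arntl and both of Npas2 lay below it and are described without a test of the gene. The probe sets of Per3 numbered 6, those of Per2 and Tef 3 each, those of Dbp and Nr1d2 2 each, and Per1, Nr1d1 and Cry1 had 1 each.

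All 16 mice lacked apolipoprotein E, which makes mice prone to atherosclerosis. They came from The Jackson Laboratory, were given a high fat diet (D12079B) from 8 weeks of age for 10 weeks, and were 18 weeks old when studied. The groups were 4 non-diabetic mice, 4 non-diabetic mice with RBX, 4 mice made diabetic with streptozotocin (STZ, which destroys pancreatic beta cells) at 6 weeks of age, and 4 STZ-diabetic mice with RBX. RBX is ruboxistaurin, an inhibitor of protein kinase C beta, and was mixed into the diet, with no dose in the labels. Each mouse was an individual animal. Every mouse carried the ApoE deletion and ate the high fat diet, so no group stands for a wild-type aorta or a normal diet. For the hour at which aortas were taken, the sources used here give nothing.

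The clock is a feedback loop of transcription. ARNTL (also called BMAL1) pairs with CLOCK or its relative NPAS2, binds E-boxes and drives the Per, Cry and Nr1d genes as well as Dbp and Tef. PER and CRY proteins repress the pair, and NR1D1 and NR1D2 (REV-ERB alpha and beta) repress Arntl and Npas2 through REV-ERB/ROR elements. DBP and TEF are PAR bZIP factors that bind D-boxes, which NFIL3 also binds as a repressor. The loop runs in the cells of the vessel wall, so that in an unperturbed artery Arntl and Npas2 are high at the hours when Dbp and the Nr1d genes are low. The comparison of groups therefore also shows whether the clock genes stood at different levels in groups for which the hour of harvest is unknown.

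The letters by which these factors are known to bind were searched on both strands of RefSeq promoters (GRCm38.p6), each a window from 250 bases before to 50 bases after an annotated start. Of the 10 genes, 9 had such a window, and Per2 did not. The stretches below are shown because they held matches, with the matched letters in capitals. A canonical E-box (CACGTG) lay before a start of Per1, Tef and Cry1, and 6.02% of all 32851 windows held one in their 250 bases before the start. In Per1 it began 166 bases before the start (chr11:69098771-69098800, plus strand), and in Cry1 60 bases before it (chr10:85185097-85185126, minus strand). Tef held 1 before each of its annotated starts, 127 bases (chr15:81802534-81802563, plus strand) and 138 bases (chr15:81811264-81811293, plus strand) away. A CACGTT element, read here on its other strand as AACGTG, lay 28 bases before the start of Nr1d1 (chr11:98775388-98775417, minus strand), against 3.85% of all windows. Cry1 held the same letters as well. Dbp, Per3 and Nr1d2 held neither CACGTG nor CACGTT in their windows. The 9 genes had 12 windows between them, whereas the percentages are per window.
Per1 E-box: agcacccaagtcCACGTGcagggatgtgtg
Cry1 E-box: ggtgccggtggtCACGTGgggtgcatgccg
Tef E-box, upstream start: gtgctgtggctcCACGTGctgcagctggca
Tef E-box, downstream start: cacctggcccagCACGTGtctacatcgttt
Nr1d1 E-box variant: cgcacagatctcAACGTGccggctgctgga

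D-boxes (TTATGNAA) lay before the start of Per1 and Per3, and 3.07% of all windows held one there. Per1 had 1 at 24 bases before the start (chr11:69098914-69098943, plus strand). Per3 had 2, beginning 205 and 158 bases before the start, in a stretch of 75 bases (chr4:151044806-151044880, minus strand). The REV-ERB/ROR element was searched only in the spelling AGTAGGTNA. These letters were found in Arntl alone among the 9 genes, around and after its start (chr7:113207493-113207522 and chr7:113207529-113207558, plus strand). Of all windows of 300 bases 0.591% held them. Other spellings were not searched, so this does not show that the rest of the 9 genes lack the element. These are matches of letters, and no binding was measured here.
Per1 D-box: agggcctggcaTTATGCAAcccgcctccca
Per3 D-boxes: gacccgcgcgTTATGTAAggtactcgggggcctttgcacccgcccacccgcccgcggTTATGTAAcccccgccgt
Arntl element at the start: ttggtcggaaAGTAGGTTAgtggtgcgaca
Arntl element after the start: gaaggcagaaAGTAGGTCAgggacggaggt

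The values below are MAS5 signals on a linear scale. For each gene the probe set with the highest mean is used unless another is named. The arrays differed in ways that touch the comparisons. The mean signal of the cre hybridisation control, which is added to every sample at a fixed amount, was 187700 in non-diabetic mice, 430027 in non-diabetic mice with RBX, 237370 in diabetic mice and 274245 in diabetic mice with RBX. The 3′/5′ signal ratio of Actb, which rises as RNA degrades or labelling shortens, averaged on the log2 scale 1.04, 2.08, 1.34 and 1.71 in the same order. The 4 non-diabetic RBX arrays were higher in both measures than every non-diabetic array. Fits that hold either measure constant are given beside the calls of the tested clock genes. Non-diabetic mice 1 and 2 also stood apart in Ighm, the heavy chain of immunoglobulin M, with 44844.7 and 52138.2 against 926.1 to 2269.5 in the other 14 mice. Calls of the tested clock genes, and the interactions flagged at the end, are given without these mice where they change. For the other listed genes and the cell markers such fits are not given. Over all genes, calls for RBX in non-diabetic mice went from 31.6% to 16.9% without these mice. The summed signal of 5 smooth muscle markers, read as a sign of aortic tissue, ran from 287336 to 483700 over the 16 mice. No probe set on these arrays was at 0 (the lowest value was 0.7), so a marker above 0 does not show detection. Because whole tissue was used, fewer cells of a type and less RNA per cell cannot be told apart.

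Arntl, the activator at the head of the loop, gave low and uneven signals. Its brighter probe set (1425099_a_at) read 685.9, 405.1, 448.8 and 816.9 in non-diabetic mice and 249.1, 75.9, 647.2 and 62.6 in those with RBX. It read 322.3, 511.4, 307.2 and 433.6 in diabetic mice, against 111.9, 333.8, 481 and 415.3 in diabetic mice with RBX. The groups overlapped in each of the 4 comparisons, and the lowest and 1 of the higher values lay within the same group, non-diabetic RBX. In a limma fit of all 45101 probe sets this probe set was lower with RBX in non-diabetic mice by a log2 fold change of -1.76, with an adjusted p of 0.0631. The other Arntl probe set had a log2 fold change of 1.20 in the same comparison, and across the 16 arrays the pair correlated at r = -0.17. The Arntl signal therefore gives no common direction for the gene.

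Npas2, the partner that can replace CLOCK, was likewise low. Its brighter probe set (1421037_at) read 257.3, 189.2, 172.8 and 399.8 in non-diabetic mice, and 308.4, 396.4, 126.6 and 398.2 in those with RBX. It read 175.5, 219.2, 289.4 and 393.2 in diabetic mice, and 117.1, 316.5, 245.5 and 400.6 in diabetic mice with RBX. Each group held both low and high mice, and its probe sets correlated at r = -0.03.

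Dbp, a direct output of the loop, was read at a high level in every aorta. It gave 23861.1, 26230.2, 15965.9 and 18841.3 in non-diabetic mice and 26594.3, 25956.3, 17702.8 and 15925.6 in those with RBX. It gave 24786.5, 17909.2, 16989.6 and 10970.5 in diabetic mice and 22719.1, 15018.6, 19873.8 and 22620.5 in diabetic mice with RBX. All 4 groups overlapped, and the range within a group was wider than the distance between group means. From the lowest to the highest mouse Dbp spanned 2.42-fold, in group means from 17664 ± 5658 (SD, n = 4) in diabetic mice to 21545 ± 5517 in non-diabetic mice with RBX. The limma difference was 0.01 with RBX in non-diabetic mice (log2, 95% interval -0.46 to 0.48) and -0.30 with diabetes (-0.77 to 0.17). Neither passed the test. Its second probe set followed the first closely, at r = 0.95 over the 16 arrays.

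Tef, the other PAR bZIP factor, had the steadier signal, with a span of 1.86-fold. It read 10863.2, 11325.1, 10097.2 and 9107.4 in non-diabetic mice and 9403.7, 6655.6, 8734.5 and 6414.7 in diabetic mice. In mice with RBX it read 11041, 11938, 9329.7 and 11875.6 without diabetes and 10114.6, 7196.4, 8823.5 and 10495 with it. The non-diabetic and diabetic groups overlapped through 1 mouse on each side. Group means were 10348 ± 969.9 without diabetes or RBX, 11046 ± 1215 with RBX alone, 7802 ± 1492 with diabetes alone and 9157 ± 1490.2 with both.

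Nr1d2, the REV-ERB beta repressor, was the gene whose signal separated 2 groups completely. It read 35653.1, 32859.2, 36612.9 and 35750.3 in non-diabetic mice, and 28218.2, 27337.6, 21381.4 and 18125.4 in non-diabetic mice with RBX. Every RBX-fed non-diabetic mouse was below every non-diabetic mouse. Diabetic mice read 36696.9, 33078.8, 27852.1 and 25299.5, and with RBX they read 33507.1, 26426, 28133.5 and 27057.4. These last groups overlapped with each other. The order of group means was non-diabetic (35219 ± 1631), diabetic (30732 ± 5128), diabetic RBX (28781 ± 3229) and non-diabetic RBX (23766 ± 4833), and of the 4 pairs of groups compared only the first and the last differed past the test.

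Nr1d1, the REV-ERB alpha repressor, varied most between mice among the 8 tested genes, with a span of 3.10-fold. It read 3552.6, 3140.7, 2127.2 and 3194.2 in non-diabetic mice, and 4481.4, 3508.3, 2105.5 and 1875.1 in those with RBX. It read 2575.7, 2201.8, 2075.7 and 1443.8 in diabetic mice, and 2167.6, 2295.3, 3624.4 and 3152.3 in diabetic mice with RBX. The groups overlapped in every comparison. Their means were 3004 ± 612, 2993 ± 1227, 2074 ± 471 and 2809.9 ± 697 in that order.

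The repressors of the Per and Cry families were read next. Per1 averaged 3281 ± 542 without diabetes or RBX, 4114 ± 1064 with RBX alone, 3387 ± 1035 with diabetes alone and 3815 ± 445 with both, and all groups overlapped. Per2 read 4019.3, 4444.6, 4793.2 and 3435.3 in non-diabetic mice, and 3889.1, 4187.9, 4542.9 and 4339.8 in those with RBX. In diabetic mice it read 4808, 3642.7, 3415.3 and 2844, and in diabetic mice with RBX 5975.3, 4724.2, 5218.1 and 4472.3. The diabetic RBX mice had the highest mean, and 1 diabetic mouse reached into their range. Per3 read 4088.8, 4104.1, 5087.5 and 3871 in non-diabetic mice, and 4606.1, 5998.2, 2936.8 and 2689.4 in those with RBX. It read 4190.4, 2697.5, 2560.7 and 2447.4 in diabetic mice, and 4606, 3898.4, 4070.5 and 6257.9 in diabetic mice with RBX. One diabetic mouse (replicate 1) had a Per3 signal within the range of the other groups, and the other 3 were lower than every non-diabetic and every diabetic RBX mouse. Cry1 read 648.7, 839, 566.3 and 662.6 in non-diabetic mice, and 975.3, 1304.6, 1011.7 and 757.6 in those with RBX. It read 1053.4, 1007.6, 657.2 and 1158.6 in diabetic mice, and 999.4, 696.8, 792.8 and 991.1 in diabetic mice with RBX. The non-diabetic mice had the lowest mean (679 ± 115) and overlapped with each other group.

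**Figure D1:**
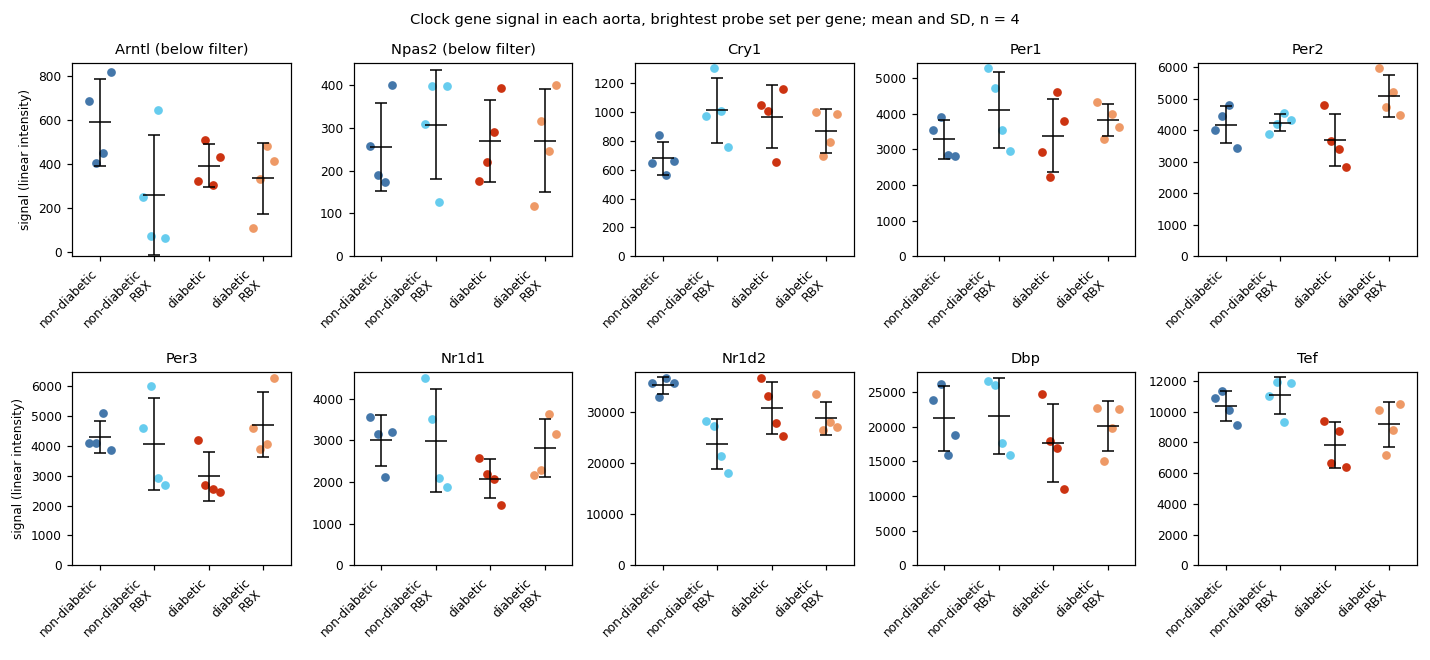
Signal (linear intensity, y axes) of the brightest probe set of each clock gene in each of the 16 aortas, by group. Points are mice, and bars are the mean and SD of 4 mice. Nr1d2 in non-diabetic mice lies above all non-diabetic RBX mice, whereas all groups overlap in Dbp.

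Diabetes without RBX was compared first, as 4 diabetic against 4 non-diabetic mice. Of the 8 tested clock genes 6 had lower and 2 had higher mean log2 signal, with a median of -0.25, against 0.01 over all 11043 genes. In limma none of the 8 passed an adjusted p of 0.05, where 0.652% of all genes passed, and 4 of the 8 had an unadjusted p under 0.05, where 15.2% of all genes did. The 4 were Tef at -0.42 (log2, SE 0.14, adjusted p = 0.146), Per3 at -0.56 (SE 0.23, adjusted p = 0.242), Nr1d1 at -0.54 (SE 0.26, adjusted p = 0.325) and Cry1 at 0.50 (SE 0.22, adjusted p = 0.285). Per2 (-0.20), Nr1d2 (-0.21) and Dbp (-0.30) were lower by less, and Per1 differed by 0.01. With arrays weighted by their fit, 2 of the 8 passed, Per3 (-0.56, adjusted p = 0.0421) and Tef (-0.48, adjusted p = 0.0164), and 10.9% of all genes passed in that fit. When the signal was tested over all 23 probe sets, 0 passed, against 0.146% of all probe sets.

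RBX in diabetic mice gave 6 higher and 2 lower of the 8 genes, with a median of 0.23, against -0.02 over all genes. None passed in limma (0.0453% of all genes did), and 2 had an unadjusted p under 0.05, where 9.19% of all genes did. Those 2 were Per2, at 0.49 (SE 0.14, adjusted p = 0.279), and Per3, at 0.67 (SE 0.23, adjusted p = 0.364). Nr1d1 stood at 0.44, Tef at 0.24, Dbp and Per1 at 0.22 each, Nr1d2 at -0.09 and Cry1 at -0.14. The same 4 diabetic mice serve as the control here and as the changed group in the comparison above, so the opposite signs of the median are not independent of each other.

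RBX in non-diabetic mice was the comparison with more calls over the array than any other, since 31.6% of the 11043 genes passed. Of the 8 clock genes 1 passed. Nr1d2 fell by 0.59 on the log2 scale (SE 0.14, adjusted p = 0.00335), a level 1.505-fold lower, without overlap of the groups, as 13.2% of all genes were lower without overlap. It passed with each of the 8 arrays left out. The difference did not pass when the cre control was held constant (-0.21, SE 0.27, adjusted p = 0.777) or when the Actb ratio was (-0.51, SE 0.27, adjusted p = 0.329). Each measure separated these groups completely, so that in these fits the measure and RBX cannot be told apart. With the cre control as a covariate 0 of the 11043 genes passed, so that every call of this comparison named below is lost too, and with the Actb ratio 174 passed. Without non-diabetic mice 1 and 2, Nr1d2 passed at -0.63 (adjusted p = 0.0231), as did 16.9% of all genes. Cry1 was 0.56 higher (SE 0.22, adjusted p = 0.0556), and passed when non-diabetic mouse 2 was left out (0.67, adjusted p = 0.0435) or non-diabetic RBX mouse 4 (0.69, adjusted p = 0.0285). In all, 2 of the 8 had an unadjusted p under 0.05, where 42.7% of all genes did. The other 6 genes ranged from -0.15 for Per3 to 0.30 for Per1.

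Diabetes in mice with RBX left 0 of the 8 genes past the test, where 7.07% of all genes passed, and 1 with an unadjusted p under 0.05, where 24% of all genes had one. That gene was Nr1d2, at 0.29 (SE 0.14, adjusted p = 0.198). Tef was at -0.28 (adjusted p = 0.229), and the rest lay between -0.21 and 0.27. The 4 non-diabetic RBX mice were the control here and the changed group in the comparison above.

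The interaction asked whether the RBX difference was the same in diabetic and non-diabetic mice. None of the 8 genes passed (limma, 11.5% of all genes did), and 4 had an unadjusted p under 0.05, where 27.9% of all genes did. Per3 stood at 0.82 (SE 0.32, adjusted p = 0.10), Nr1d2 at 0.50 (SE 0.19, adjusted p = 0.0967), Per2 at 0.46 (SE 0.20, adjusted p = 0.147) and Cry1 at -0.70 (SE 0.31, adjusted p = 0.141). With the cre control held constant 0 of all genes passed, and with the Actb ratio 341 did, none of them a clock gene. Single mice decided the side of the threshold. Nr1d2 passed without non-diabetic RBX mouse 1 (0.59, adjusted p = 0.0461), Per3 passed without non-diabetic RBX mouse 2 (1.04, adjusted p = 0.0265), and Per2, Per3 and Nr1d2 passed without diabetic mouse 1 (adjusted p = 0.0366, 0.0380 and 0.0471).

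Averaged over both RBX states, diabetes gave 0 of 8 genes past the test (0.0906% of all genes), with 1 at an unadjusted p under 0.05, where 9.92% of all genes had one. That gene was Tef, at -0.35 (SE 0.10, adjusted p = 0.219). Averaged over both diabetes states, RBX gave 1 of 8, where 19.9% of all genes passed, and Nr1d2 fell by 0.34 (SE 0.10, adjusted p = 0.0202). It did not pass with the cre control held constant (-0.11, adjusted p = 0.811), with the Actb ratio held constant (-0.29, adjusted p = 0.507), with the mean over probe sets (-0.73, adjusted p = 0.0663) or without non-diabetic mice 1 and 2 (-0.36, adjusted p = 0.0534). Over all genes 12 passed with the cre control and 0 with the Actb ratio. An unadjusted p under 0.05 was found for 2 of the 8 and 34.5% of all genes. Per2 stood at 0.26 in that comparison (adjusted p = 0.0766) and passed without diabetic mouse 1 (0.33, adjusted p = 0.0196).

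**Figure D2:**
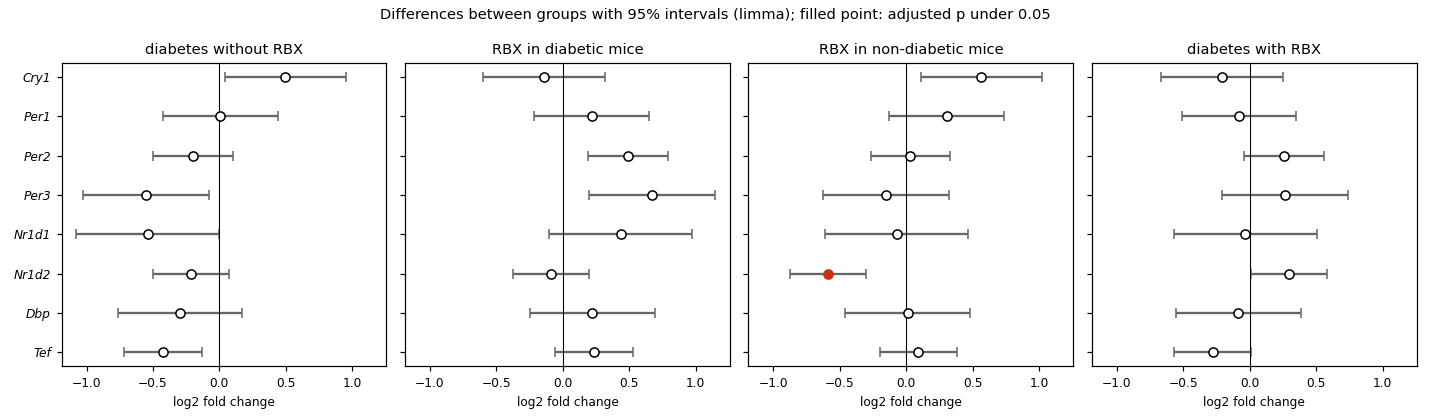
Log2 fold change (x axes) of the 8 tested clock genes (y axis) in the 4 comparisons of 2 groups, with 95% intervals from limma. The filled point marks an adjusted p under 0.05, and only Nr1d2 with RBX in non-diabetic mice, at -0.59, has one.

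Probe sets of 1 gene did not always move together, and this touched the same comparison. With each of the 23 probe sets tested apart among 45101, 5 passed for RBX in non-diabetic mice, 4 lower and 1 higher, where 12.6% of all probe sets passed. They belonged to 4 genes. With the cre control held constant 0 of the 23 passed (0% of all probe sets), and with the Actb ratio also 0 (0.157%). Without non-diabetic mice 1 and 2 only the brighter Nr1d2 probe set passed (5.61%). A second Per2 probe set (1417602_at) read 3910.3, 4594.8, 4483.4 and 2974.1 in non-diabetic mice and 1888.4, 1369.5, 1127.9 and 2779.6 in those with RBX, with no overlap, and fell by 1.22 (log2, SE 0.27, adjusted p = 0.0042). The brightest Per2 probe set stood at 0.03 in the same mice, and the pair correlated at r = 0.11 over the 16 arrays. The third Per2 probe set (1417603_at), below the filter on low signal, stood at -1.78 and did not pass (limma, adjusted p = 0.0575).

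Per3 moved both ways. Its probe set 1458176_at read 4388.5, 4952.5, 3506.8 and 3366.3 in non-diabetic mice and 3437.2, 1750.4, 1968 and 1340.1 in those with RBX, and fell by 1.004 (SE 0.22, adjusted p = 0.00421). Its probe set 1442243_at read 3218.6, 3026.8, 3040.6 and 2120.7 against 4525.2, 5019.6, 3273.5 and 4140.6, and rose by 0.57 (SE 0.19, adjusted p = 0.0459). The RBX mice were thus lower by 1 probe set of Per3 and higher by another, with the brightest at -0.15. The first of these probe sets was also higher in diabetic than non-diabetic mice with RBX, by 0.91 (adjusted p = 0.0260).

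A second Tef probe set (1450184_s_at) fell by 1.51 (SE 0.44, adjusted p = 0.0260), from 923.9, 1101.6, 908 and 1024.7 to 753.4, 373, 563.2 and 91.5, while the brightest stood at 0.09. The third Tef probe set (1438033_at), below the filter, stood at 0.78 and did not pass (limma, adjusted p = 0.198). Both Nr1d2 probe sets were lower. The brighter passed at -0.59 (adjusted p = 0.00554 over all probe sets), and the dimmer read 631.8, 604, 623.8 and 838.1 against 828, 129.2, 433.4 and 42.2, which overlapped. The Dbp probe sets stood at 0.01 and -0.23 in this comparison. The positions of the probe sets along their transcripts were not used here. In other comparisons 0 of the 23 passed for RBX in diabetic mice (0.02% of all probe sets), 1 for diabetes with RBX (3.04%), 1 for the interaction (3.73%) and 2 for RBX averaged (7.13%), and with either array measure held constant 0 of the 23 passed in any comparison.

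**Figure D3:**
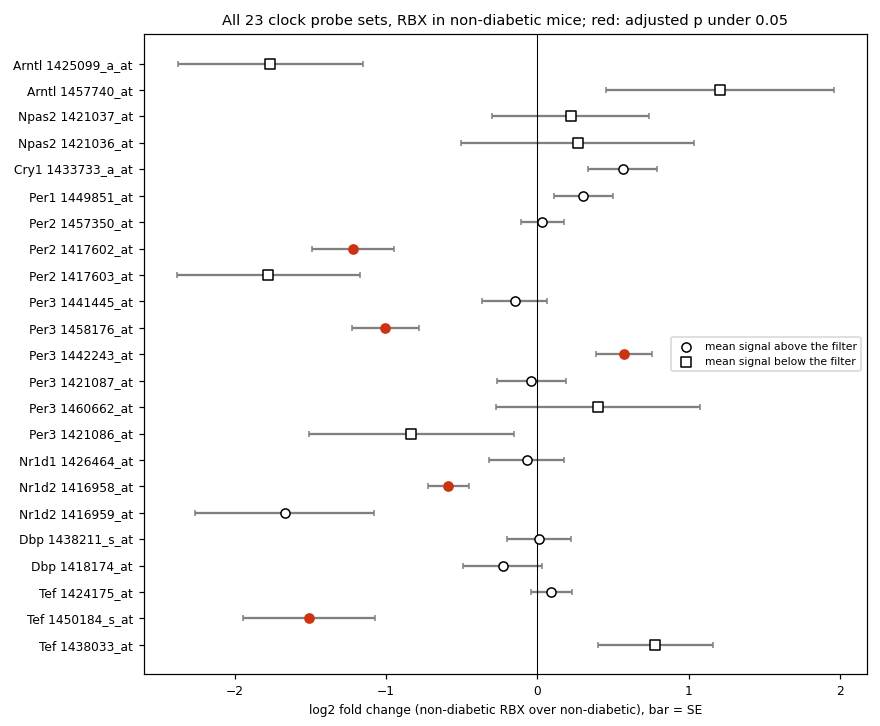
Log2 fold change (x axis) for RBX in non-diabetic mice of each of the 23 clock probe sets (y axis), with standard errors. Squares mark probe sets below the filter on low signal, and filled points an adjusted p under 0.05 over 45101 probe sets. Filled points of Per3 lie on both sides of 0, at -1.004 and 0.57.

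The clock genes were then compared from mouse to mouse. Each gene's log2 signal was centred on its group mean, so that only differences within a group remained, and the genes were correlated over the 16 mice with Dbp and with Arntl. Of 21 relations computed, the highest were those of Dbp with Nr1d1 (Pearson r = 0.79, permutation p = 0.00335, adjusted p = 0.0703), with Nr1d2 (r = 0.72, permutation p = 0.0127, adjusted p = 0.0888), with Tef (r = 0.69, permutation p = 0.00926, adjusted p = 0.0888) and with Per3 (r = 0.66, permutation p = 0.0272, adjusted p = 0.114). Spearman's rho was 0.76, 0.74, 0.64 and 0.79 in the same order, with permutation p = 0.00800, 0.0148, 0.0147 and 0.00518 and an adjusted p of 0.0779 for each. None passed the adjustment over the 21 relations. By centred correlation with Dbp among the 11043 tested genes, counting Dbp itself, Nr1d1 ranked 82, Nr1d2 216, Tef 306 and Per3 410. Many genes outside the clock thus followed Dbp more closely, such as Myl6 (r = 0.91). Without group centring the relations of Dbp with Nr1d1 (r = 0.81, permutation test, adjusted p = 0.00378), Tef (r = 0.69, adjusted p = 0.0203) and Per3 (r = 0.66, adjusted p = 0.0298) passed. Those permutations ran over all 16 mice and not within groups, so they ignore the groups.

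Leaving out the 2 mice farthest from the median of Dbp gave r = 0.75 for Nr1d1, 0.59 for Nr1d2, 0.54 for Tef and 0.59 for Per3. Leaving out the 4 non-diabetic RBX mice gave 0.71, 0.60, 0.79 and 0.52 over 12 mice. Dbp and Cry1 stood at r = 0.42, Dbp and Per2 at 0.41, Dbp and Per1 at 0.33 and Dbp and Npas2 at -0.22. Dbp also stood at r = -0.54 with the cre control (permutation p = 0.0550, adjusted p = 0.192), and at -0.16 with the Actb ratio. Without the 2 farthest mice the cre relation was r = -0.85 (permutation p = 0.00127, adjusted p = 0.0147), and it passed the adjustment. The part of the cre control in the shared variation of Dbp and its neighbours was not tested.

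None of the relations with Arntl passed the adjustment. Arntl and Dbp, which are opposite in phase in an intact clock, stood at r = -0.14 (permutation p = 0.632, adjusted p = 0.830). Arntl and Tef stood at -0.54 (permutation p = 0.0210, adjusted p = 0.110), and Arntl with the other clock genes between -0.29 and 0.20. Without the 4 non-diabetic RBX mice Arntl stood at r = 0.76 with Npas2 (permutation p = 0.0264, adjusted p = 0.157) and at -0.58 with Per2 (permutation p = 0.0300, adjusted p = 0.157) over 12 mice. With the Actb ratio Arntl stood at -0.47 (permutation p = 0.274, adjusted p = 0.576), and at 0.39 without the 4 non-diabetic RBX mice (adjusted p = 0.417 by permutation). When not centred that relation stood at -0.71 (permutation p = 0.00237, adjusted p = 0.0203), permuted over all mice and not within groups. The signal of Arntl was below the filter, and these values rest on 1 of its probe sets, which did not follow the other.

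**Figure D4:**
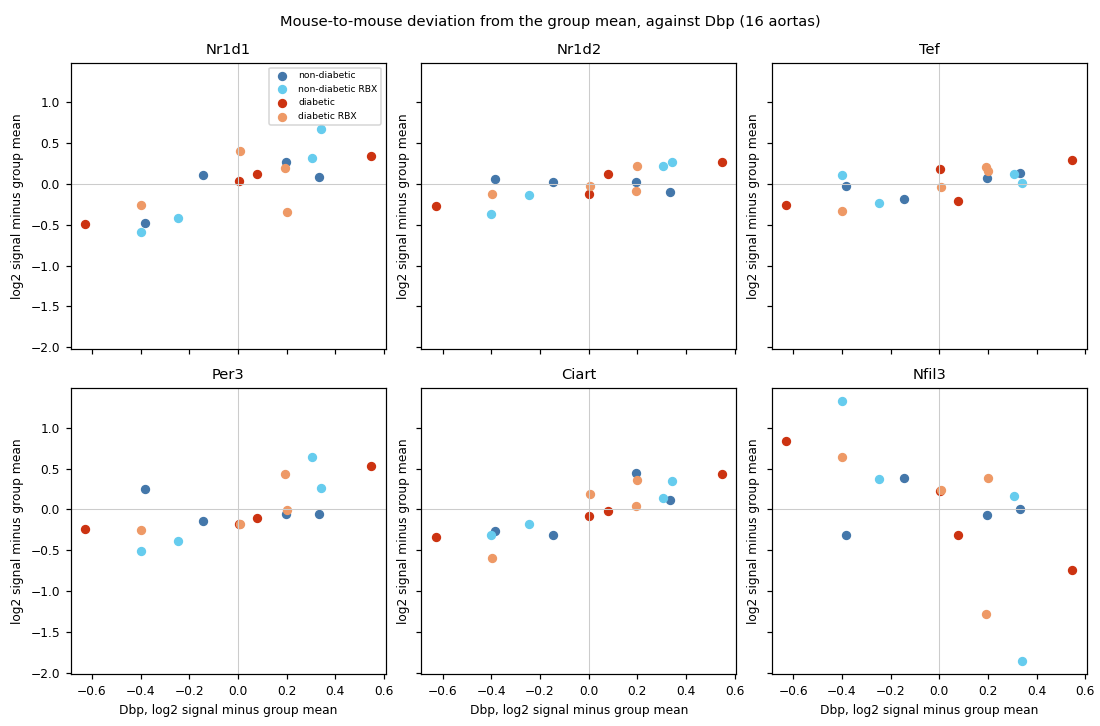
Deviation of each mouse from its group mean of log2 signal, for Dbp (x axes) against Nr1d1, Nr1d2, Tef, Per3, Ciart and Nfil3 (y axes), with 1 point per mouse. The points of Nr1d1 (r = 0.79) and Ciart (r = 0.87) rise with Dbp, and those of Nfil3 (r = -0.64) fall.

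The genes most like Dbp were taken as those with the highest Pearson correlation of log2 signal over the 16 arrays, without centring, as a description. Ciart came first, at r = 0.85. It encodes a clock-controlled repressor of the ARNTL and CLOCK pair, and it read 1601.5, 1275.7, 980.8 and 946.4 in non-diabetic mice and 1284, 1114.3, 895.8 and 814.5 in those with RBX. It read 1079.8, 789.5, 758 and 631.2 in diabetic mice and 1195.8, 614.5, 1060.7 and 961.3 in diabetic mice with RBX. The next genes were Pard3b (0.84), Wnt9a (0.83), Nkd1, Cbx7, Cc2d2a and Dpp8 (0.80 each) and Chd2 (0.79), with the clock gene Nr1d1 at 0.81 among them. With values centred on the group means 1 of these 8, Pard3b, was again among the nearest 8. Nfil3, the repressor that binds the same D-boxes as DBP, had r = -0.63 with Dbp, the 145th lowest of 11043 genes. The genes most like the brighter Arntl probe set were Mplkip (0.82), Klf12, Setd7 and Fam185a (0.81 each), Polr3f, Inhba and Rasal2 (0.80 each) and Rasl11a (0.79), and 0 of these 8 were again among the nearest after centring.

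Other genes of the clock were read as a list of 16, of which 11 were tested. Diabetes without RBX and RBX in diabetic mice changed 0 of the 11 in limma (3 and 1 at an unadjusted p under 0.05, where 15.2% and 9.19% of all genes had one). In those comparisons the list median was 0.06 and 0.00093, near the 0.01 and -0.02 of all genes. With RBX in non-diabetic mice 1 rose and 1 fell, where 16.5% of all genes rose and 15.1% fell. Clock, the partner of ARNTL, fell by 0.78 (SE 0.16, adjusted p = 0.00141), from 3735.4, 3504.5, 3767.6 and 5981.1 to 2261.6, 2397.8, 2378.2 and 2608.8, without overlap. Hlf, the remaining PAR bZIP factor, rose by 0.80 (SE 0.22, adjusted p = 0.0117), from 2360.2, 2136.1, 1676.7 and 1398.8 to 4650.9, 2110.7, 3860.8 and 2856.1, with overlap. Clock was also higher with diabetes in RBX-fed mice, by 0.55 (adjusted p = 0.0447), and fell by 0.43 with RBX averaged (adjusted p = 0.0129). For diabetes in RBX-fed mice, 781 of all genes passed, 48 with the cre control held constant and 292 with the Actb ratio. Such fits are not given for Clock, or for Cdkn1a and Mt2, named below in that comparison. Ciart was at -0.55 with diabetes without RBX (adjusted p = 0.272).

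Of 16 genes known as outputs of the clock, 14 were tested. RBX in non-diabetic mice raised 4 and lowered 1, where 16.5% of all genes rose and 15.1% fell. Those that rose were Alas1, the first enzyme of haem synthesis (0.60, adjusted p = 0.00907), Pparg, the adipogenic receptor (0.78, adjusted p = 0.0386), Pdk4, which restrains pyruvate oxidation (1.18, adjusted p = 0.0196), and Cdkn1a, the cell cycle inhibitor p21 (0.62, adjusted p = 0.00490). Thra, a thyroid hormone receptor whose gene overlaps that of Nr1d1 on the other strand, fell by 0.41 (adjusted p = 0.0329). The summed signal of 5 brown adipocyte markers ran from 19819 to 32876 in non-diabetic mice and from 25983 to 117829 in those with RBX. That of 4 white adipocyte markers ran from 10956 to 17974 and from 9403 to 41945. The part of adipose tissue in the Pparg and Pdk4 values was not tested. Lonrf3, which encodes a RING finger protein, was 0.46 higher with RBX in non-diabetic mice (adjusted p = 0.0953) and stood at -0.45 with RBX in diabetic mice (adjusted p = 0.511). Diabetes without RBX changed 0 of the 14 in limma (2 at an unadjusted p under 0.05, where 15.2% of all genes had one). Alas1 stood at 0.60 there (adjusted p = 0.0759) and Thra at -0.50 (adjusted p = 0.0865). RBX in diabetic mice also changed 0 of the 14 (2 at an unadjusted p under 0.05, where 9.19% of all genes had one). With diabetes in RBX-fed mice Cdkn1a fell by 0.67 (adjusted p = 0.0118).

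Glucocorticoids shift with the hour of the day and with stress, and all 10 genes listed as responsive to them were tested. Diabetes without RBX and RBX in diabetic mice changed 0 of the 10 in limma. In each, 2 had an unadjusted p under 0.05, where 15.2% and 9.19% of all genes did. With diabetes alone Fkbp5, a chaperone of the glucocorticoid receptor, stood at -0.54 (adjusted p = 0.260) and Zbtb16 at -0.79 (adjusted p = 0.180). RBX in non-diabetic mice raised 3 and lowered 2 of the 10, where 16.5% of all genes rose and 15.1% fell. Klf9, a transcription factor, rose by 0.77 (adjusted p = 0.000749) beside Pdk4 and Cdkn1a, which the list shares with the outputs above. Mt2, a metallothionein, fell by 0.83 (adjusted p = 0.000657), and Zbtb16 fell by 0.83 (adjusted p = 0.0326). The members thus moved in both directions. Mt2 was 1.25 higher with diabetes in RBX-fed mice (adjusted p = 0.000230) and 0.74 higher with diabetes averaged (adjusted p = 0.0137), and Klf9 rose by 0.62 with RBX averaged (adjusted p = 0.000581), in which Mt2 fell by 0.33 (adjusted p = 0.0423).

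Immediate early genes, which respond within minutes to handling and dissection, were tested in 13 of 14 cases. Diabetes without RBX changed 0 of the 13 in limma (2 at an unadjusted p under 0.05, where 15.2% of all genes had one). RBX in diabetic mice changed 0 (3 at an unadjusted p under 0.05, where 9.19% of all genes had one). RBX in non-diabetic mice raised 1, Myc, by 0.81 (adjusted p = 0.0221), and RBX averaged lowered Jun by 0.27 (adjusted p = 0.0461) and Ier3 by 0.29 (adjusted p = 0.0482). These counts, 1 and 2 of 13, stand beside the 31.6% and 19.9% of all genes that passed in the same comparisons.

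Markers of the cells in the wall also differed in non-diabetic mice with RBX, the group in which Nr1d2 fell. The summed signal of 5 macrophage markers ran from 65802 to 94541 without RBX and from 106138 to 136561 with it, and that of 5 endothelial markers from 29127 to 33090 and from 41028 to 64026. The sum of 5 smooth muscle markers ran from 401113 to 437809 and from 287336 to 444545. No marker of these lists was at 0, which holds for every probe set on these arrays. Of 5 markers each, 4 endothelial, 3 macrophage and 3 adventitial fibroblast markers rose, and of the smooth muscle markers 1 rose and 3 fell, where 16.5% of all genes rose and 15.1% fell. The sum of 5 lymphocyte markers, Ighm among them, ran from 2446 to 53684 without RBX and from 2687 to 3656 with it. The part of cell composition in the Nr1d2 difference was not tested.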

How the data were processed

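RNA came from Trizol extraction and was labelled with biotin for Affymetrix arrays, per the labels' protocols. Per the submitters' processing notes, the authors made the signals with MAS5. What they deposited was linear intensity for 45101 probe sets, with a trimmed mean of 1500.01 on every array (2% left out at each end). Detection calls were not used here. Depth does not apply to arrays, and their number limits the precision.

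Values were taken to log2, and probe sets with a mean above the median of all (a signal of 381.5) were kept, with the brightest per gene. Of the probe sets 34958 had 1 symbol in the platform annotation, 932 had several, 9211 were unnamed and 64 were controls. Groups were compared with limma 3.58.1 in R 4.3.3 (12 residual and 6.2 prior degrees of freedom, intensity trend), and two-sided p-values were adjusted by Benjamini-Hochberg over 11043 genes. Rises and falls are differences past an adjusted p of 0.05. On simulated data for diabetes without RBX over 11043 genes, the fit called 31.3% of genes with a log2 change of 0.5, 77.6% with 1 and 98.5% with 2, with 7 false calls. The simulated noise was independent between genes and arrays, without differences shared by whole arrays, so these rates may not hold for the real arrays. Correlations used 100000 permutations, within groups for centred values and over all arrays for values not centred. The permutations were drawn in numpy 2.4.6, with ranks from scipy 1.17.1, and adjusted values cover 21 relations. Dbp was added as a reference gene after Arntl was seen to lie below the filter, and the fits without non-diabetic mice 1 and 2 after their Ighm was seen.

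The clock genes and the lists were chosen with earlier results of these data known. Named beside the clock genes were members of each list that passed in a comparison or had small p-values there, and the 8 genes most like Arntl and Dbp, leaving out clones and predicted genes. The alternatives were quantile and 75th percentile normalization, no filter and a 70th percentile filter, an offset of 30.5, the mean over probe sets, probe sets apart, no trend, array weights, a robust variance, the replicate block, the cre control or Actb ratio as a covariate, a fit of the compared groups alone, and leaving out each array.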

Additional observations from a re-analysis of the deposited data

Results flagged for a closer look

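In the limma interaction test (RBX in diabetic minus RBX in non-diabetic mice, log2), 1 of 23 clock probe sets passed, where 3.73% of all probe sets did. Of the listed genes 6 passed, where 11.5% of all genes did. Among 14 tested clock outputs 1 passed above 0 and 4 below. Among 10 glucocorticoid responsive genes 1 passed above and 1 below, with Cdkn1a in both lists. Of 11 other clock genes and 13 immediate early genes 0 passed. For the Per3 probe set 1458176_at the interaction was 1.35 (adjusted p = 0.0173 over all probe sets), while the brightest Per3 probe set stood at 0.82. Among clock outputs it was -1.04 for Alas1 (adjusted p = 0.00764), -1.29 for Pparg (adjusted p = 0.0402), 0.67 for Thra (adjusted p = 0.0356), -0.91 for Lonrf3 (adjusted p = 0.0490) and -0.84 for Cdkn1a (adjusted p = 0.0176). For Mt2 it was 1.01 (adjusted p = 0.00706). These tests share the 4 non-diabetic RBX arrays, whose control signals stood apart. With the cre control held constant 0 of the 7 passed, with Mt2 at 1.40 (adjusted p = 0.0949). With the Actb ratio held constant, and also without non-diabetic mice 1 and 2, Mt2 alone passed, at 1.25 (adjusted p = 0.0207) and 1.28 (adjusted p = 0.00582). No mouse stood apart from its group by Dixon's test in the 40 groups of 4 values of the 10 clock genes, where chance gives about 1 in 20.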

How the results depend on the processing

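Counts of clock genes past the test moved as follows. Array weights gave 2 for diabetes without RBX (Per3, Tef) and 2 for RBX averaged (Per2, Nr1d2). For RBX in non-diabetic mice the mean over probe sets gave 2 (Per2, Nr1d2), no intensity trend 2 (Nr1d2, Cry1), and the cre and Actb covariates 0 each. RBX averaged gave 0 with the mean over probe sets, 0 with the cre covariate, 0 with the Actb covariate and 0 without both non-diabetic arrays of high Ighm. Leaving out each array gave 1 to 2 for RBX in non-diabetic mice, 0 to 3 for the interaction and 1 to 2 for RBX averaged. Apart from the replicate block below, all other counts of clock genes were as reported. Over all genes the calls for RBX in non-diabetic mice ranged from 0 to 5668 (3495 as reported), for diabetes without RBX from 1 to 1209 (72), for RBX in diabetic mice from 1 to 36 (5), for diabetes with RBX from 48 to 1371 (781), for the interaction from 0 to 1777 (1274), for diabetes averaged from 0 to 14 (10) and for RBX averaged from 0 to 3217 (2199).

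No difference of a clock gene changed sign under quantile or 75th percentile normalization, the filters or the offset. The following did under other settings. With the mean over probe sets: Nr1d2 with diabetes without RBX 0.034, Per3 with diabetes averaged 0.17, Per2, Dbp and Tef with RBX in non-diabetic mice -0.99 (adjusted p = 0.0101), -0.11 and -0.21, and Per2 and Tef with RBX averaged -0.39 and -0.017. With array weights: Per1 with diabetes without RBX -0.084, and Per3 and Dbp with RBX in non-diabetic mice 0.012 and -0.024. With the cre covariate: Per2, Per3 and Nr1d1 with RBX in non-diabetic mice -0.23, 0.42 and 1.20, Per3 with diabetes with RBX -0.027, and Dbp and Nr1d1 in the interaction -0.54 and -0.53. With the Actb covariate: Per2, Tef and Nr1d1 with RBX in non-diabetic mice -0.11, -0.0052 and 0.12. Without both arrays of high Ighm, a setting chosen after seeing the data: Nr1d1 with RBX in non-diabetic mice 0.11, Dbp in the interaction -0.054 and Per1 with diabetes averaged 0.064. None of these passed, other than Per2 where said. The cause was not tested.

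With single arrays left out, values ranged over 0 for Per1 (-0.16 to 0.19) with diabetes without RBX, Nr1d2 (-0.17 to 0.0044) with RBX in diabetic mice, and Per2 (-0.058 to 0.10), Per3 (-0.36 to 0.022), Dbp (-0.12 to 0.15) and Nr1d1 (-0.30 to 0.12) with RBX in non-diabetic mice. The same held for Per1 (-0.23 to 0.053), Dbp (-0.22 to 0.047) and Nr1d1 (-0.23 to 0.19) with diabetes with RBX, Per1 (-0.27 to 0.079) in the interaction, and Per1 (-0.12 to 0.057), Per2 (-0.038 to 0.088) and Nr1d2 (-0.020 to 0.087) with diabetes averaged.

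Correlations between clock genes that changed sign were Arntl with Npas2 (0.57) and Dbp with Npas2 (0.011) and Per2 (-0.090) without the 2 farthest mice, Arntl with Nr1d2 not centred (0.41) and with quantile normalization (0.026), and Arntl with Cry1 with quantile normalization (0.062). Without the 4 non-diabetic RBX mice Arntl and Npas2 did so too (0.76). With the Actb ratio, Dbp changed sign when not centred (0.011), and Arntl did without the 2 farthest mice (0.0045) and without the 4 non-diabetic RBX mice (0.39). Without the 2 farthest mice Dbp and Cry1 stood at 0.74 (permutation test, adjusted p = 0.0147).

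By correlation between mice, replicate numbers did not pair them. The 24 pairs of the same number correlated at -0.14 to 0.18, 2 of them above 0.1, and 3 of 16 mice correlated best with their own number. Clock genes taken alone were not tested for an order by replicate number. In non-diabetic RBX and in diabetic mice, Dbp, Nr1d1, Nr1d2 and Ciart each fell at every step of the number. How many of all genes did so was not counted. The cre control rose at every step in non-diabetic RBX mice (308744.5, 373880.7, 461865.8 and 575617.6). In diabetic mice it did not (226062.3, 275438.2, 240150.8 and 207830). Per1, Per2, Per3, Tef and Cry1 did not do so in both groups. In non-diabetic mice only Ciart of those that fell did so, and in diabetic RBX mice none did. The replicate block gave 1 clock gene in the interaction, Nr1d2 (adjusted p = 0.0477).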
